A study of Mus musculus with 24 samples.

Results

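MicroRNA (miRNA) names whose reads rarely matched the catalogue sequence were followed through small RNA libraries of mouse hippocampal exosome-enriched fractions (EEFs): miR-6236 (mmu-mir-6236 in the files), miR-6240 (mmu-mir-6240), miR-1957a (mmu-mir-1957a), miR-1957b (mmu-mir-1957b), miR-2137 (mmu-mir-2137) and miR-5126 (mmu-mir-5126). They are 6 of the 1073 names with reads in the deposited counts, chosen by the share of their reads that the modification files list with altered ends. The size of that share is therefore described and not tested, and only its differences between groups of libraries were tested. The higher level of miR-6236 in one of the preparations was known when the names were listed and is a description. Every record with these names was taken, and none of the 6 has separate 5p and 3p entries.

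The 24 libraries came from male C57BL/6 mice (C57BL/6OlaHsd in the study's methods), 6 to 9 weeks old, that received kainic acid (KA, 0.3 µg in 0.2 µl) or PBS in the basolateral amygdala, and midazolam at 8 mg/kg was given 40 min later to limit seizures. Hippocampi were collected after 24 h or 2 weeks, pooled for each sample and turned into EEFs either by ultracentrifugation (UC) or with the ExoQuick precipitation kit (Kit). By the study's methods, a UC pool held more hippocampi than a Kit pool. Each of the 8 combinations of method, treatment and time had 3 libraries, so a library stands for a pool of hippocampi and not for 1 animal. The EEFs were treated with RNase A before RNA was extracted, and method and library set cannot be told apart, since each method was run on its own samples. Depth was low: UC libraries held 85436 to 169639 assigned reads (median 132335) and Kit libraries 154884 to 676726 (median 277043), so 1 read stood for 1.48 to 11.7 CPM (counts scaled to the library total). The labelled tissue was checked against its markers. The neuronal miR-124-3p stood at 5602 ± 984 CPM in the UC libraries and at 5677 ± 1336 CPM in the Kit libraries (SD, n = 12 per method), and the liver miRNA miR-122-5p had no UC reads and 4 Kit reads. Other markers were less alike between UC and Kit, with means of 7370 and 16181 CPM for neuronal miR-128-3p. Oligodendrocyte miR-219a-2-3p had 7007 and 854 CPM, whereas oligodendrocyte miR-338-3p had 1232 and 1065 CPM. The choroid plexus miR-204-5p was also present, at 816 and 1722 CPM.

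A miRNA is cut from a hairpin precursor by Drosha and Dicer, and the seed near its 5′ end selects targets, so the 5′ end of a genuine miRNA is held nearly fixed while the 3′ end is often trimmed or extended by added bases. Catalogue entries based on a few sequencing reads can also collect pieces of abundant longer RNAs, because a short read with a partial match is given to the closest hairpin. No ribosomal or transfer RNA sequence was compared with the reads here.

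RefSeq held the mature sequence of 4 of the 6 names (build GRCm38.p6, plus strand), which are shown because all later positions refer to them. Capitals mark the seed, bases 2 to 8.
miR-6236 (chr9:110281353-110281371): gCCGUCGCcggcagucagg
miR-6240 (chr5:114851973-114851998): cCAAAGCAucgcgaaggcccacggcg
miR-2137 (chrX:72992113-72992133): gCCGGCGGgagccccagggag
miR-5126 (chr1:84695890-84695911): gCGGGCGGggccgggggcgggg
The 4 seeds differ from each other. The sequences are rich in G and C, at 69.2% in miR-6240, 78.9% in miR-6236, 85.7% in miR-2137 and 100% in miR-5126, against a median of 52.2% over the 1679 mature mouse miRNAs of that table. By the GENCODE M21 annotation of GRCm38, the hairpins of miR-6236 (chr9:110281287-110281409) and miR-6240 (chr5:114851948-114852064) overlap no other gene. Those of miR-1957a (chr4:119129779-119129844, in the glucose transporter gene Slc2a1) and miR-2137 (chrX:72992079-72992144, in Zfp185) lie in introns on the strand of the host gene. The hairpins of miR-1957b (chr8:111450200-111450322) and miR-5126 (chr1:84695839-84695915) lie opposite exons of Wdr59 and Dner.

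The 6 names were unequal in abundance. Over all libraries miR-6236 had 43909 reads, miR-6240 26172, miR-1957a 3298, miR-2137 384, miR-5126 223 and miR-1957b 54. In the UC libraries miR-6236 ranked 5 among all names, whereas it ranked 38 with the kit, and miR-6240 ranked 45 and 27. Together the 6 names took 0.721 to 4.05% of the reads of a UC library (median 3.10%) and 0.360 to 1.66% of those of a Kit library (median 1.04%). The last 3 names rest on so few reads that their percentages in single libraries are coarse.

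Altered reads made up most of the reads of each name. Summed over libraries, a modification was listed for 94.8% of miR-6236 reads, 73.8% of miR-6240, 99.9% of miR-1957a, 97.8% of miR-5126 and all reads of miR-2137 and miR-1957b. For miR-6240 the exact binomial 95% interval was 73.3 to 74.4%, and for miR-1957b, with its 54 reads, 93.4 to 100%. Such intervals cover counting error only, as reads without molecular identifiers are not independent molecules. For scale, 239 other names with at least 240 reads had a median of 12.5% (5th to 95th percentile 2.69 to 83.0%). The 10 abundant brain miRNAs listed as a reference, among them miR-9-5p, miR-124-3p and let-7c-5p, ranged from 1.08 to 30.3%.

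**Figure D1:**
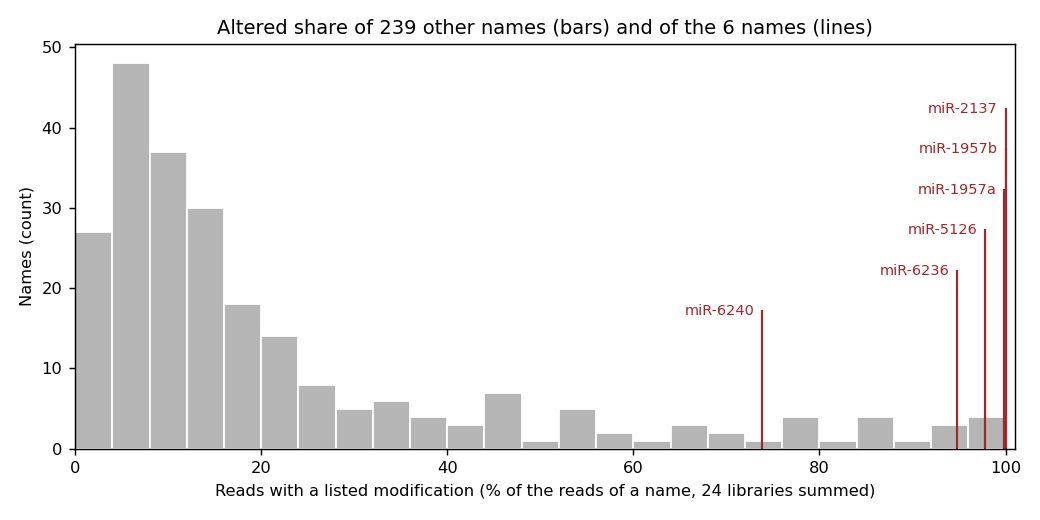
The horizontal axis is the percentage of a name's reads with a listed modification, summed over 24 libraries, and the bars count 239 other names with at least 240 reads. Red lines mark the 6 names, of which miR-6240 lies lowest at 73.8% and the other 5 lie above 94%.

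High shares were not particular to these names. The 5 other names with the highest shares were miR-320-5p (100%), miR-1195 (98.1%), let-7k (97.7%), miR-5099 (97.0%) and miR-6238 (96.0%). Among names with a known source in another RNA, miR-1291, processed from a small nucleolar RNA, had 14 reads of which 78.6% were altered. The also snoRNA-derived miR-1839-5p had 7150 reads with 6.60% altered, and miR-664-5p had 1245 reads with 22.0% altered. MiR-712-3p, from the spacer of the ribosomal RNA precursor, had 6 reads, all altered, which is too few for a level, and miR-664-3p had none altered among 59. The extreme values thus rest on few reads, and the names of this kind with at least 240 reads stood at 6.60 and 22.0%.

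The altered end differed between the names. A changed 5′ end was listed first for 96.9% of miR-1957a reads, 97.1% of miR-2137, 87.4% of miR-5126 and all of miR-1957b. It was listed for 15.9% of miR-6240 reads and 4.66% of miR-6236 reads, against a median of 0.384% over the 239 other names. Both ends were changed in 91.5% of miR-1957a, 83.6% of miR-2137, 52.5% of miR-5126 and 98.1% of miR-1957b reads. In miR-6236 and miR-6240 this was seen in 4.09% and 2.32% of reads, whose changes lay mainly at the 3′ end.

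The altered stretches of some names also lay far from the annotated ends. A stretch whose listed position, its first letter, was more than 5 bases from the annotated end of its side was listed first for 89.5% of miR-6236 reads, 96.9% of miR-1957a and 64.6% of miR-6240. The same measure gave 64.1% in miR-5126 and 57.6% in miR-2137, where it counts long 5′ stretches that reach to or nearly to the first mature base. Among the 239 other names the median was 0.154% and the 95th percentile 13.6%. The placement of the positions was checked on the 3 hairpins in RefSeq. The altered base next to the matching part differed from the hairpin base at that position in all 19024 listings of miR-6240, all 682 of miR-2137 and all 334 of miR-5126.

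**Figure D2:**
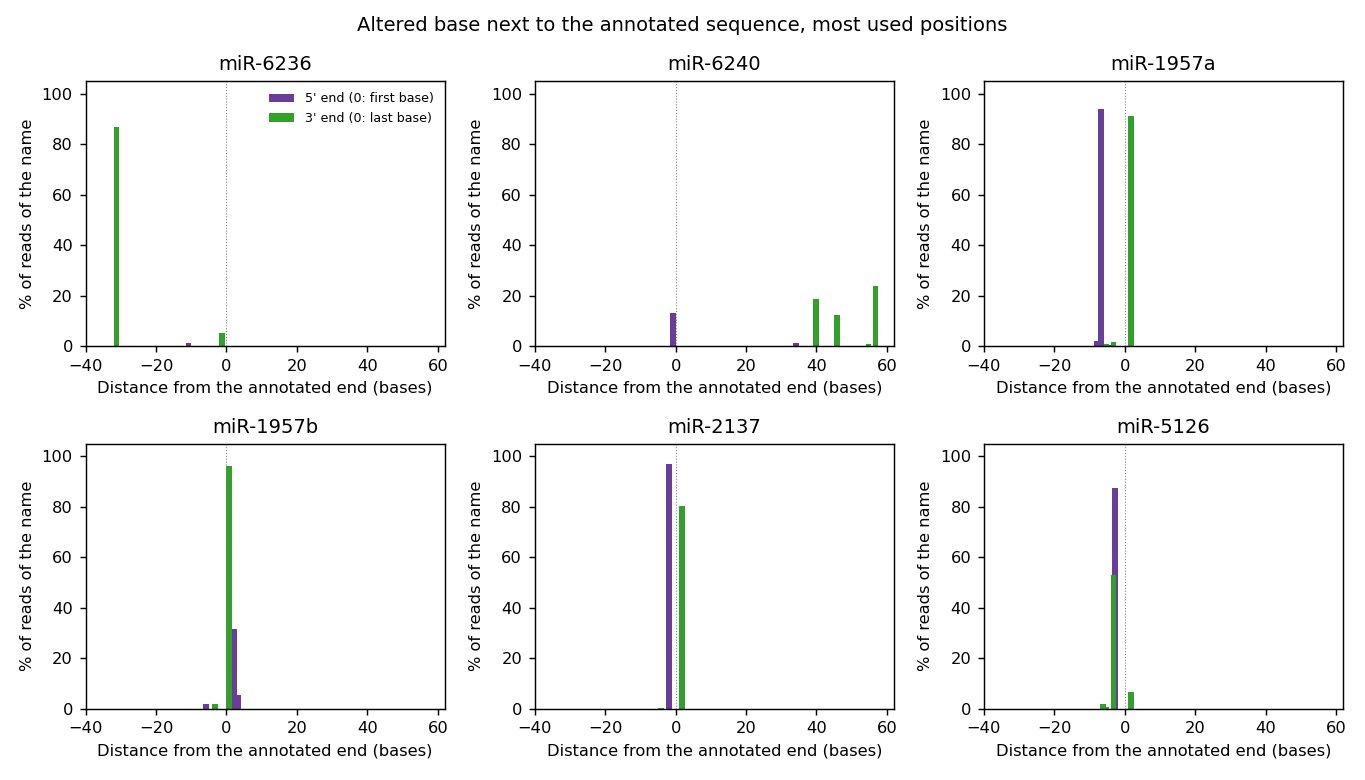
Each panel gives, for 1 name, the percentage of its reads (vertical axis) whose altered stretch borders the matching part at a given distance from the annotated end (horizontal axis, bases), with 5′ ends in purple and 3′ ends in green, bars shifted slightly apart, at most 4 positions per end and without single-base substitutions. In miR-6236 the reads gather 32 bases before the last mature base, and in miR-6240 they gather 39, 45 and 56 bases beyond it.

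In miR-6236 nearly all altered reads shared 1 end. The stretch began 32 bases before the last base of the 19-base mature sequence, which is 14 bases upstream of its first base, in 38051 listings. Its letters were CGGGCC in 30431 reads (69.3%) and CGGGCCC in 5830 (13.3%). If the listed letters run to the end of the read, 37527 of the 43909 reads (85.5%) stopped before the first base of the annotated miRNA, with 70.3 to 89.8% in single libraries. A second end began 2 bases before the last mature base in 2294 listings, and its longest supported form was GGAACGGAACGGGACGGGA, of which 90.9% of those listings held a leading piece. At the 5′ end, 498 of the 503 listings whose last altered letter was 10 bases before the first mature base were end pieces of CGUCGGGC. The most frequent stretch was in every library and took 52.3 to 75.9% of reads with UC (median 72.6%) and 46.6 to 67.7% with the kit (median 60.8%).

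The 5′ ends of miR-6240 read as 1 continuous sequence that is not in its hairpin. Of 3460 5′ listings whose last altered letter was at the first mature base, 99.5% were end pieces of a run of 20 letters. The run is shown here against the hairpin, with the altered letters and their hairpin counterparts in capitals. Lower-case letters in this and the later lines of reads are copied from the hairpin, since only altered letters are listed.
miR-6240 hairpin: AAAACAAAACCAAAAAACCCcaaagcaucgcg
miR-6240 reads: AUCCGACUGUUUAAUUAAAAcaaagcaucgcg
Only 5 of the 20 capital positions are equal. Each letter of the run was carried by at least 70 reads, at an agreement of at least 99.1% among reads reaching it. Lengths from 1 to 20 letters all occurred, so these reads started at many points upstream.

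Downstream, 3 ends of miR-6240 lay beyond the annotated 26 bases, each in all 24 libraries. The stretch at 56 bases past the last mature base had 6181 listings, that at 39 bases 4898 and that at 45 bases 3237. Their letters were nearly fixed, as 99.3% of listings at 39 and 97.5% at 45 were pieces of the 4 letters in capitals. At 56 bases 83.8% were pieces of the 8 letters. The lower-case letters are again those of the hairpin and were not taken from the listings.
39 bases, hairpin: cagugcucugaaGGUC
39 bases, reads: cagugcucugaaUGUC
45 bases, hairpin: ucugaaggucaaUGUG
45 bases, reads: ucugaaggucaaAGUG
56 bases, hairpin: augugaagaaauGUGACUCU
56 bases, reads: augugaagaaauUCAAUGAA
At the nearer ends only the first of the 4 letters differs from the hairpin, whereas at 56 bases 1 of 8 letters is equal. In the annotated part, the substitution A21G, counted from 1 at the 5′ end of the mature sequence, was listed as an inside change for 474 reads (1.81%). Listings of the same base as a changed end, with 59 reads in UC libraries, were not added to that count.

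MiR-2137 carried changes at both ends and inside. All of its 373 listed 5′ stretches stopped just before the first mature base, and 97.9% were end pieces of 9 letters, of which 1 equals the hairpin. The 308 main 3′ stretches began directly after the last mature base. In 363 of 384 reads (94.5%) the change A16G was present, in 91.1% of UC and 96.9% of Kit reads and in all 24 libraries. Joined in 1 line, the supported letters compare with the hairpin as follows, with all changed positions in capitals in the read.
miR-2137 hairpin: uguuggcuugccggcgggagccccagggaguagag
miR-2137 reads: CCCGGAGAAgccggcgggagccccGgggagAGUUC
A change from A to G is also what adenosine-to-inosine editing produces, and the file lists it under that type. Only a joined string is shown, and no read is claimed to span it all.

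MiR-5126 showed the same kind of nested 5′ run. The 195 listed 5′ stretches all stopped 2 bases before the first mature base, and 94.9% were end pieces of 11 letters, a repeat of UGG units that ends in CG. The main 3′ stretch, UGG in place of CGG, began 4 bases before the last mature base in 118 listings.
miR-5126 hairpin: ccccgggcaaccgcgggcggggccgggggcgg
miR-5126 reads: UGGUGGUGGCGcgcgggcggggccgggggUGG
None of the joined strings of miR-2137, miR-5126 and miR-6240 had an exact match, on either strand, among the 141767 GENCODE M21 transcripts, whereas the hairpin strings of miR-2137 and miR-5126 matched their own entries. That search says only that no joined string, taken whole, is in those transcripts. The altered stretches were not searched separately, so it does not decide whether they occur there.

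For miR-1957a the 5′ letters were as constant. The stretch GGGGGUA, which stops 6 bases before the first annotated base, was listed for 2952 of 3298 reads and present in every library. With the kit it took 91.7 to 97.1% of reads (median 94.2%), and with UC 48.6 to 93.5% (median 85.2%). The lowest UC value came from KA at 2 weeks, replicate 3, where 54 of 111 reads had it. The 3′ ends of the same reads began 1 base after the annotated end, with 95.6% of 3010 listings reading U, UG or UGC. MiR-1957b, a second entry of that family, had 33 reads whose only 5′ change was a G at the first base and 17 that began with GGGG.

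The levels of the names differed between the preparations, in opposite directions, with miR-6240 higher and the 4 other tested names lower in the Kit libraries. MiR-6236 stood at 5189 to 36232 CPM in UC libraries (median 26342) and at 1107 to 5444 CPM in Kit libraries (median 3025). In 11 of 12 UC libraries it was above every Kit library. MiR-6240 stood at 967 to 3523 CPM with UC (median 2594) and 2098 to 12470 CPM with the kit (median 6637), and 11 of 12 Kit libraries were above every UC library.

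Of the 397 names tested between UC and Kit, 66.2% were called at an adjusted p under 0.05 (edgeR quasi-likelihood test, Benjamini-Hochberg adjustment over all names). Calls were thus frequent in this comparison, and 5 of the 5 tested members were among them, with miR-6236 counted although its difference was known beforehand. Of all names called, 132 were higher and 131 lower with the kit. These numbers were 83 and 168 when miR-92b-3p together with miR-25-3p set the library scale, which took the median log2 difference of all names from -0.02 to -0.45. The direction of each tested member was kept under that scaling, with miR-6240 at 0.90. MiR-6240 was higher with the kit by 1.38 on the log2 scale (SE 0.18, adjusted p = 3.75e-08 by edgeR). MiR-5126 fell by 2.51 (SE 0.31, adjusted p = 1.13e-08 by edgeR), from 110 ± 66.3 CPM with UC to 18.6 ± 9.84 CPM (SD, n = 12). For miR-1957a the kit value was lower by a log2 difference of -1.15 (SE 0.25, adjusted p = 1.29e-04 by edgeR), and its groups overlapped, at 437 to 3345 CPM against 197 to 765 CPM. MiR-2137 differed by -0.86 (SE 0.31, adjusted p = 0.0138 by edgeR) between largely overlapping ranges, 11.9 to 244 CPM with UC and 22.8 to 179 CPM with the kit. That call was lost when replicate 1 of every group was left out, where the difference was -0.58. The difference of miR-6236, -2.93 (SE 0.21), is given as a description.

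MiR-1957b did not pass the filter on low values across methods, as it had reads in 5 of 12 Kit libraries. When the 747 names with a read in both methods were tested, 160 were called higher and 148 lower with the kit. In that test 6 of 6 members were called, miR-1957b included. In the Kit libraries miR-1957b reached at most 4 reads. In the 7 Kit libraries without a read, a count of 0 allows levels of up to 8.67 to 19.4 CPM. In UC libraries it had 0 to 8 reads and stood at 28.6 ± 23.1 CPM (SD, n = 12).

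**Figure D3:**
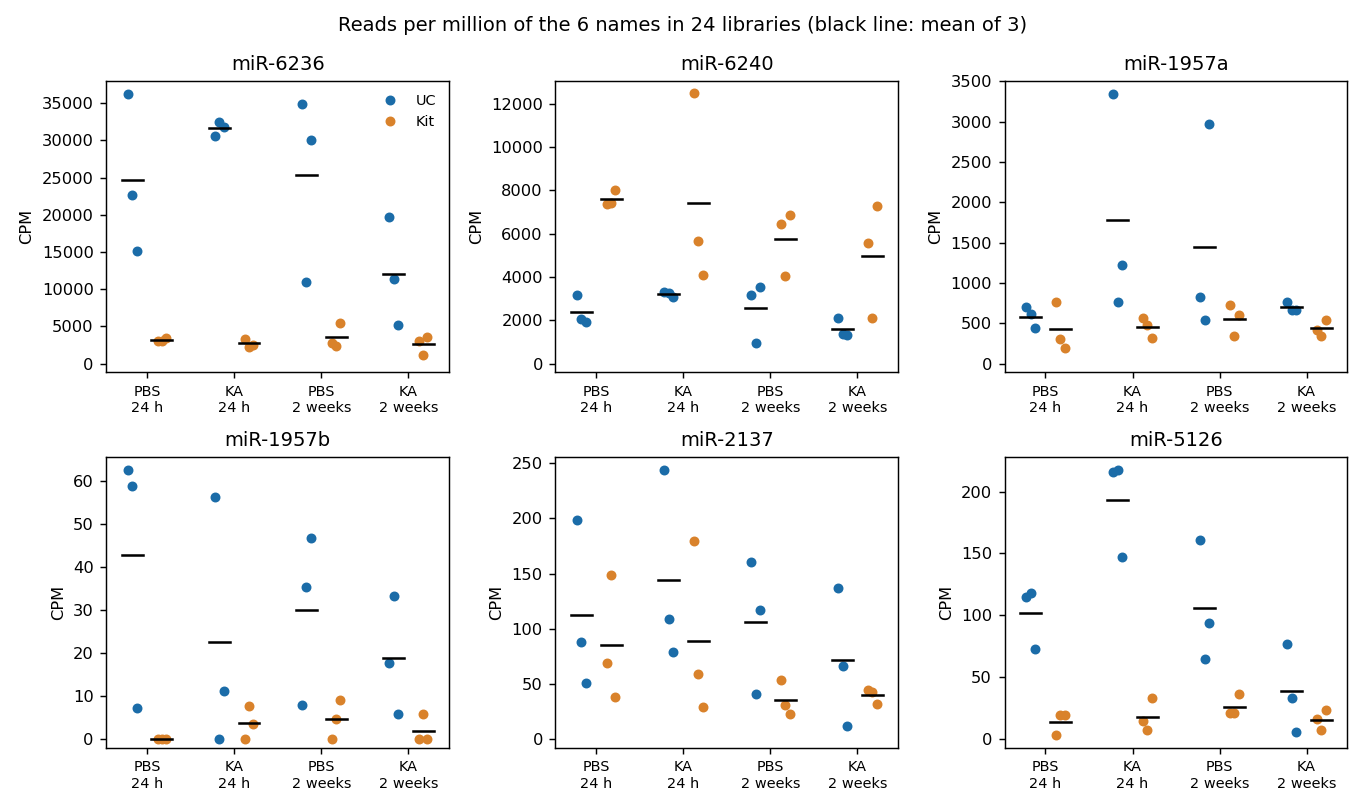
Each panel gives CPM (vertical axis, linear) of 1 name in the 8 groups, with UC libraries in blue, Kit libraries in orange and black lines for the mean of 3. MiR-6236 is high in UC and miR-6240 in Kit libraries, and miR-1957a has single high UC libraries at 3345 and 2973 CPM.

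Within a library, the ratio of miR-6236 to miR-6240 reads separated the methods without overlap. It was 3.88 to 11.4 in the UC libraries (median 9.72) and 0.268 to 0.795 in the Kit libraries (median 0.460). Small RNA reads are counted whole and not per length, so the ratio compares read numbers. The lowest UC ratio again came from KA at 2 weeks, replicate 3, and the next UC value was 7.88.

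The 3 downstream ends of miR-6240 also took different shares with the methods, as a description. The end at 39 bases held 18.3 to 41.0% of miR-6240 reads in UC libraries (median 32.1%) and 10.2 to 24.4% in Kit libraries (median 15.02%). The reverse held for the end at 56 bases, with 6.71 to 20.9% (median 10.1%) and 16.4 to 31.3% (median 24.98%). The end at 45 bases held 7.32 to 14.7% (median 8.62%) and 10.4 to 16.3% (median 13.1%). In CPM the end at 39 bases stood at 762 ± 307 in UC libraries and at 1046 ± 567 in Kit libraries (SD, 12 libraries per method), that at 45 bases at 216 ± 75.8 and 820 ± 313, and that at 56 bases at 282 ± 192 and 1683 ± 798.

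**Figure D4:**
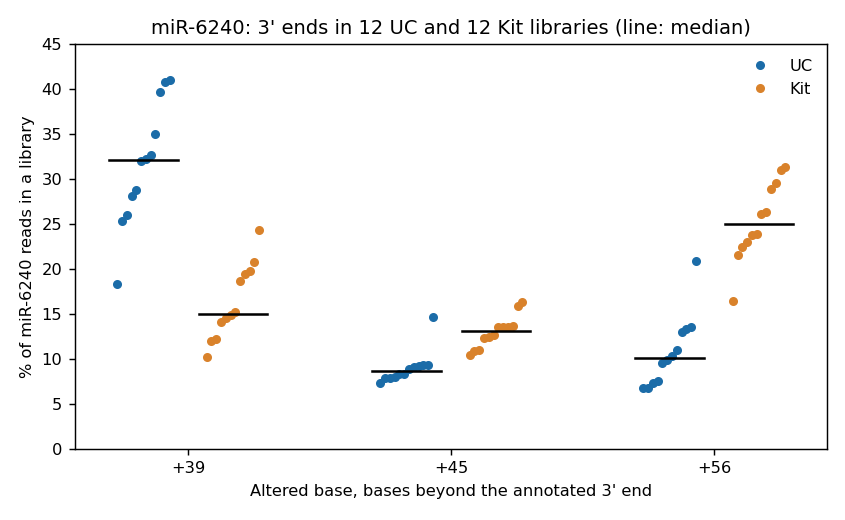
The percentage of miR-6240 reads in a library (vertical axis) is plotted for altered stretches 39, 45 and 56 bases beyond the annotated 3′ end, with 12 UC libraries in blue, 12 Kit libraries in orange, points in order of value and lines for medians. The UC libraries lie mostly above the Kit libraries at 39 bases (medians 32.1 and 15.02%) and mostly below them at 56 bases (10.1 and 24.98%).

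The altered share itself was also compared. For miR-6236 it was 95.1 ± 1.52% in UC libraries and 92.7 ± 2.27% in Kit libraries (SD, n = 12 each), a difference of 2.38 points (exact permutation test within treatment and time, two-sided, p = 0.00893, adjusted p = 0.134 over 15 tests). MiR-6240 went the other way, at 71.3 ± 3.24% and 73.9 ± 1.95% (n = 12 each), a difference of -2.60 points (exact permutation p = 0.0385, adjusted p = 0.289). MiR-1957a stood at 99.8 ± 0.430% and 100%. For these 3 names, the only ones with at least 10 reads in every library, no comparison of KA with PBS or of 2 weeks with 24 h passed the test in either method. The adjusted p of those 12 comparisons was 1 throughout by the exact permutation test. With 400 permutations the smallest p that test could give there was 0.005. A single comparison could not have passed after adjustment over 15 tests, so the outcome does not decide whether the share changed. For miR-1957a with the kit every library stood at 100%, so no difference was possible.

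Treatment was compared next, within each method. With UC, 24 h after KA, 0 of the 6 names passed the edgeR test, where 0.476% of 420 names were called and 12 had an unadjusted p under 0.05. MiR-1957a was nearest to a call. It had 699, 611 and 437 CPM in the PBS libraries and 3345, 761 and 1223 CPM in the KA libraries. Every KA value was above every PBS value, and the log2 fold change was 1.53 (SE 0.40, unadjusted p = 4.36e-04, adjusted p = 0.0610 by edgeR). The change was 0.84 without replicate 1 of each group, which holds the library at 3345 CPM. Over all omissions of a replicate or a single library it went as low as 0.73. It was past the test without replicate 2 or 3 of KA at 24 h, at 1.81 and 1.72 (adjusted p = 0.0161 and 0.0227 by edgeR), and also without replicate 1 of KA or replicate 2 or 3 of PBS at 2 weeks. It passed the test when only the 6 libraries were fitted (adjusted p = 2.44e-06 by edgeR), and over all alternatives the adjusted p ran from 2.44e-06 to 0.999.

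At 2 weeks after KA the UC values leaned downwards without a call. Of 420 names 0.952% were called, and none of the 6 was among them. An unadjusted p under 0.05 was found for 33 of the 420 names by edgeR, 3 of them members. MiR-6236 had 34965, 10929 and 30011 CPM in the PBS libraries and 19773, 11321 and 5189 CPM in the KA libraries. In the same order the PBS libraries held 124525, 169639 and 85436 assigned reads. The KA libraries held 168312, 150256 and 168443, and depth was not tested. The CPM values of the groups overlapped, and the log2 fold change of miR-6236 was -0.999 (SE 0.32, adjusted p = 0.205 by edgeR). It was past the test at -1.43 without replicate 1 of KA (adjusted p = 0.00906 by edgeR) and at -1.30 without replicate 2 of PBS (adjusted p = 0.0288), within a range from 0.00906 to 0.884 over all alternatives. MiR-5126 had -1.38 (SE 0.56) and miR-1957a -0.86 (SE 0.39), with adjusted p = 0.502 and 0.581 by edgeR. The median over the 6 names was -0.72, beside 0.02 over all 420 names, but the 6 values come from the same libraries and are not independent. With the kit, 0 of 520 names and 0 of 5 members passed at either time by edgeR, with 24 names at 24 h and 14 at 2 weeks at an unadjusted p under 0.05, none of them a member. DESeq2 called no member in these comparisons.

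The time after KA gave 2 calls among the members. In UC libraries of KA mice, miR-6236 and miR-5126 were lower at 2 weeks than at 24 h, 2 of 6 members where 0.952% of 420 names were called. MiR-6236 had 30640, 32434 and 31827 CPM at 24 h and 19773, 11321 and 5189 CPM at 2 weeks. The 24 h libraries lay close together and above all 2-week libraries, with a fall by 1.34 on the log2 scale (SE 0.32, adjusted p = 0.0143 by edgeR). MiR-5126 had 23, 28 and 13 reads at 24 h (194 ± 40.2 CPM) and 13, 5 and 1 reads at 2 weeks (38.8 ± 36.0 CPM, SD, n = 3 each). Its levels in CPM did not overlap and fell by 2.23 on the log2 scale (SE 0.54, adjusted p = 0.0143 by edgeR). Depth also differed without overlap, with 106430, 128783 and 88322 assigned reads at 24 h and 168312, 150256 and 168443 at 2 weeks. Time after KA and depth therefore cannot be told apart in this comparison, for any of the members, and depth was not tested.

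The remaining members lay on the same side. MiR-6240 had 3326, 3238 and 3091 CPM at 24 h and 2097, 1364 and 1336 CPM at 2 weeks, without overlap, at -0.91 (SE 0.31, adjusted p = 0.197 by edgeR). MiR-1957a had -1.21 (SE 0.40, adjusted p = 0.187 by edgeR), and miR-2137 and miR-1957b -0.94 and -0.13 with wider errors. The median of the 6 was -1.08 beside 0.07 over all names tested, and here too the 6 values are not independent. In PBS mice no name was called over the same interval (17 at an unadjusted p under 0.05), and miR-6236 differed by -0.04 and miR-5126 by 0.02. MiR-1957a had 1.17 there (SE 0.40, unadjusted p = 0.00544, adjusted p = 0.830 by edgeR), with the opposite sign to its value in KA mice. With the kit 0 of 5 members were called in KA mice, where 0.192% of 520 names were. All 5 values there were negative, at -1.08 for miR-2137 (SE 0.58), -0.58 for miR-6240 (SE 0.37), -0.26 for miR-5126, -0.08 for miR-6236 and -0.03 for miR-1957a, with adjusted p from 0.984 to 0.989 by edgeR.

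**Figure D5:**
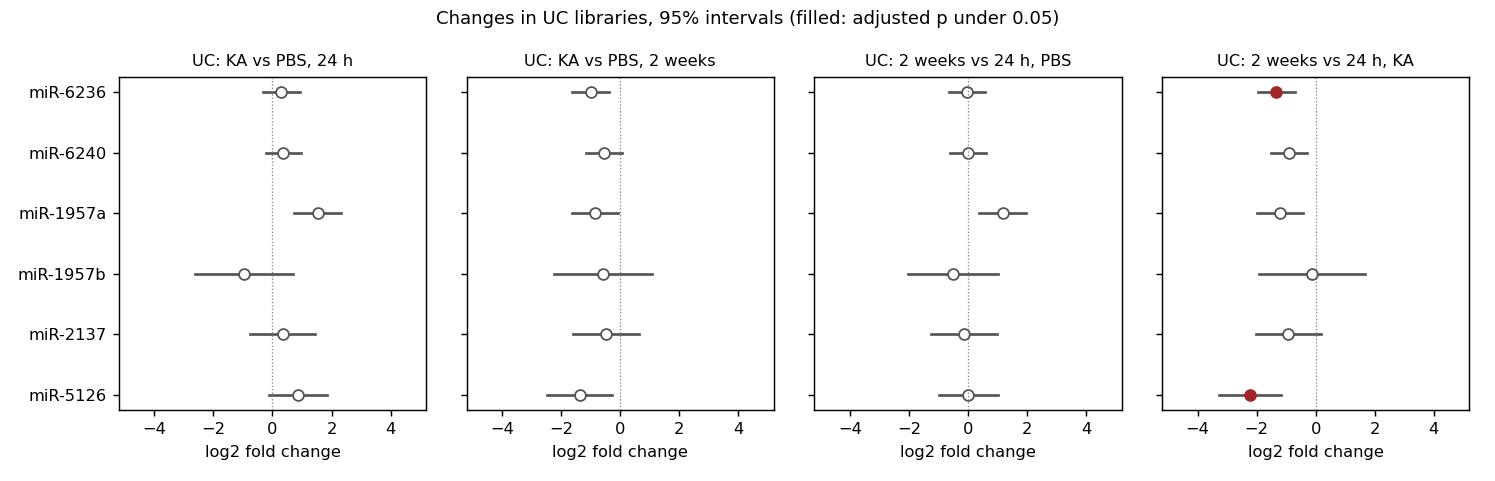
Log2 fold changes (horizontal axis) of the 6 names in UC libraries are drawn for 4 comparisons, with lines for 95% intervals and filled points for an adjusted p under 0.05 by edgeR. Filled points appear for miR-6236 and miR-5126 in KA mice between 24 h and 2 weeks, at -1.34 and -2.23.

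These calls depended on single libraries. The UC library of KA mice at 2 weeks, replicate 3, was the lowest of all UC libraries for miR-6236, miR-2137 and miR-5126, and the 6 names took 0.721% of its reads. Without it, miR-6236 changed by -0.98 (adjusted p = 0.326 by edgeR) and miR-5126 by -1.73 (adjusted p = 0.238 by edgeR). Both calls were also lost without replicate 2 of either KA group or without replicate 1 or 2 of PBS at 24 h, and that of miR-5126 without replicate 1 of KA at 24 h. In each case both remained negative. By DESeq2 the adjusted p was 0.0685 for miR-6236 and 0.0131 for miR-5126. Over all alternatives it ran from 5.87e-05 to 0.326 and from 0.00122 to 0.332.

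The effect of KA differed between the times for 1 member. For miR-1957a in UC libraries the KA change at 2 weeks minus that at 24 h was -2.39 (SE 0.56, adjusted p = 0.0274 by edgeR), 1 of 2 calls among 420 names (0.476%). It rested on KA at 24 h, replicate 1, with 356 reads, and on PBS at 2 weeks, replicate 3, with 254 reads, where the other UC libraries had 60 to 129. Without the first the difference was -1.58 (adjusted p = 0.439 by edgeR), and without the second -1.37 (adjusted p = 0.559). The test was also not passed without KA at 2 weeks, replicate 2, where the difference was -2.25, or without PBS at 24 h, replicate 1, 2 or 3, where it was -2.45, -2.29 and -2.25. By DESeq2 it was -2.46 (adjusted p = 0.0979). Over all alternatives the adjusted p ran from 5.11e-04 to 0.559. For miR-5126 and miR-6236 the same contrast gave -2.24 (SE 0.75) and -1.30 (SE 0.44), both with adjusted p = 0.276 by edgeR, and 3 members passed without KA at 2 weeks, replicate 1. No member's KA change differed between the methods at 24 h or 2 weeks (0 of 397 names called, with 9 and 14 at an unadjusted p under 0.05).

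Across libraries of 1 method, the levels of miR-6236 were compared with those of other names. Among 242 names with at least 240 reads, the mean of the Spearman correlations in the 12 UC and the 12 Kit libraries was 0.73 for miR-6240, 0.72 for miR-1983 and 0.62 for miR-218-5p. MiR-1957a ranked 35 and miR-2137 ranked 47 in that order. MiR-6240 led in neither method alone, as miR-1983 had 0.84 and miR-6240 0.78 in UC libraries, and miR-23b-3p had 0.83 and miR-6240 0.69 in Kit libraries. MiR-2137 had 0.78 in the UC libraries and -0.13 in the Kit libraries. These points share library totals and treatments, so the values are descriptions.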

How the data were processed

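The authors trimmed adapters and mapped reads to miRBase 21 hairpins with Chimira, and deposited 1 table of read counts per miRNA name and 1 table of counts per modification (end, letters, position) for each of the 24 libraries. Records marked as the second altered end of a read were left out of totals, which then equalled the plain counts in 11992 of 11992 pairs of name and library, and were kept for positions ("listings"). CPM used the plain totals. Names with over 1 CPM in at least 6 libraries of a method were tested with edgeR 4.0.16 (R 4.3.3; TMM factors, quasi-likelihood, 1 coefficient per group, Benjamini-Hochberg adjustment over all names, threshold 0.05), and limma 3.58.1 and DESeq2 1.42.0 served as alternatives. Shares were compared by exact permutation for names with at least 10 reads in every library. Letters were joined where at least 20 reads and 80% of them agreed. Tests were checked on simulated data, the edgeR test only for KA against PBS at 24 h in each method and for UC against Kit. The 6 names, the lists and the comparisons were chosen with earlier results of these data known. Named beside them were 10 reference names, names with a known origin in another RNA, the 5 other names with the highest altered share and the 3 most like miR-6236. Replicates are pools, and library pairs of a group differed by 5.89 to 183 times the sampling variance of their counts, so none was counted as a repeat.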

Additional observations from a re-analysis of the deposited data

Results flagged for a closer look

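One result met a rule set for closer inspection. For miR-1957a in UC libraries, the change after KA at 2 weeks and that at 24 h differed by -2.39 on the log2 scale in the interaction test (adjusted p = 0.0274 by edgeR), from 1.53 at 24 h and -0.86 at 2 weeks. The difference was -1.58 without replicate 1 of KA at 24 h and -1.37 without replicate 3 of PBS at 2 weeks, neither past the test. In those libraries the share of the stretch GGGGGUA was 93.5% and 89.4%, the highest of the UC libraries. Groups of 3 are too small for a test of outlying libraries.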

How the results depend on the processing

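Replicate numbers did not pair the samples: same-numbered deviations correlated at -0.157 to 0.169, over 0.1 in 2 of 12 pairs. With a replicate block, members called with UC were 1 for KA at 24 h, 1 for KA at 2 weeks and 2 for the difference of the KA change between times, in place of 0, 0 and 1, and the block moved no other count by over 1.5 times. Over all 420 names the block gave 4 higher and 0 lower for KA at 24 h, and 4 higher and 2 lower at 2 weeks. Of the 2 names called between 24 h and 2 weeks in KA mice (UC), DESeq2, the minimum of 10 counts in 6 libraries and scaling by miR-92b-3p together with miR-25-3p each gave 1. Over all names, DESeq2 and that minimum each called 1 higher and 2 lower, and that scaling 0 and 2. Unmodified reads alone left 0 members in that comparison and 2 members between UC and Kit, since 2 could be tested. Between UC and Kit they called 112 names higher and 126 lower of 352. The difference of the KA change between times had 0 members with DESeq2, limma-voom, that minimum and unmodified reads. Fitting only the 6 libraries gave 1 for KA at 24 h and 1 for time in PBS mice, and testing all names with a read gave 1 for KA at 24 h. In that order these fits called 4, 3 and 3 names in all, each of them higher, of 420, 420 and 859 tested. Leaving out replicates or, chosen after seeing the data, each library in turn gave 0 to 1 members for KA at 24 h, 0 to 1 for KA at 2 weeks, 0 to 2 for time in KA mice, 0 to 3 for the difference between times and 0 to 1 for the altered share between methods (miR-6236 without replicate 3, 3.91 points, exact permutation adjusted p = 0.0231, between 0.0231 and 0.938 over the alternatives). Of 20 values of single names, none changed sign in 372 recomputations. These include the dominant-stretch percentages of the 6 names, which cannot change sign. The cause of these changes was not tested. A miR-1957b or miR-5126 level of a few reads limits every ratio built on it.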
